A study of Mus musculus with 10 samples.

Results

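Genes that mark tissue macrophages, 10 in number, were followed across the posterior wall of the mouse eye: Lyve1, Mrc1, Cd163, F13a1, Folr2, Csf1r, Aif1, Cd68, Adgre1 and Cx3cr1. They were chosen by name as known macrophage genes, and all 10 were found among the 26360 genes of the deposited table. The material was RPE/choroid/sclera, that is, the retinal pigment epithelium with the vascular and fibrous coats behind it, from wild type C57BL/6J mice at postnatal day 34. All 5 animals had worn a -20 D lens over 1 eye for 10 days from postnatal day 24, which induces myopia, and the fellow eye had no lens. Each animal gave 1 library per eye, and the labels do not say which eye wore the lens. The groups were left eyes (n = 5) and their fellow right eyes (n = 5). A difference between the sides therefore has no treatment direction. Eyes of untreated animals were not analysed here.

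Macrophages live in most tissues and depend on signalling through Csf1r, the receptor for the growth factors Csf1 and Il34. In the choroid they lie along the vessels, where they take up debris, and many perivascular macrophages carry scavenger and endocytic receptors. Lyve1 encodes a hyaluronan receptor, which lymphatic endothelium also carries, and Mrc1 encodes the mannose receptor. Cd163 encodes the receptor that clears haemoglobin bound to haptoglobin, F13a1 the catalytic subunit of the crosslinking enzyme factor XIII, and Folr2 a folate receptor. These are called the scavenger and perivascular genes here. The other genes are more general markers: besides Csf1r they are Adgre1, an adhesion receptor of mature mouse macrophages, Cd68, a glycoprotein of lysosomes, Aif1, an actin-binding protein, and Cx3cr1, the receptor of the chemokine Cx3cl1 on microglia and monocyte-derived cells.

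The transcription factor PU.1 is a master regulator of this lineage and binds DNA around the letters GAGGAA. The 250 bases before the RefSeq start site were matched for 7 of the 10 genes, as 9 windows (build GRCm38.p6), and 4 of the 9 windows, of 4 genes, held these letters on either strand, against 23.3% of 32851 windows of the same length in the table. The Maf factors of macrophages bind around TGCTGA. It was held by 2 of the 9 windows, both of Folr2, against 16.1% of the 32851 windows. The letters of the motifs can overlap, but no examined window held both. A match is a description of the letters and not a binding site. Windows of 5 genes are shown for their place in the data below. Mrc1, Cd163, F13a1 and Folr2 had their lowest value of the 10 libraries in the same library, where Cd68 had its highest. Lyve1 was also lowest and Csf1r highest there, and no window is shown for them. Capitals mark either motif or its reverse complement, and each window is 5′ to 3′ on the strand of its gene, at chr2:14229164-14229413 (plus) for Mrc1, chr6:124304401-124304650 (plus) for Cd163, chr13:37050245-37050494 (minus) for F13a1, chr7:101857191-101857440 (minus) for Folr2 and chr11:69666171-69666420 (minus) for Cd68.
Mrc1: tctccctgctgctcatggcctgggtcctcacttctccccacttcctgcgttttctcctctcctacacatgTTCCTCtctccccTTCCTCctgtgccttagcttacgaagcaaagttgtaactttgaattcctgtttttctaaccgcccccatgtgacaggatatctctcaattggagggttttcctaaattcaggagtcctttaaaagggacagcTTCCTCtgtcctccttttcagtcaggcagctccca
Cd163: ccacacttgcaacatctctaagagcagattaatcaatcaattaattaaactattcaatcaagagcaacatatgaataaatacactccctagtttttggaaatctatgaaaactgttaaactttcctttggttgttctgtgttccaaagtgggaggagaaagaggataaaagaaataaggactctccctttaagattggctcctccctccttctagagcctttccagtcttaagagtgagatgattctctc
F13a1: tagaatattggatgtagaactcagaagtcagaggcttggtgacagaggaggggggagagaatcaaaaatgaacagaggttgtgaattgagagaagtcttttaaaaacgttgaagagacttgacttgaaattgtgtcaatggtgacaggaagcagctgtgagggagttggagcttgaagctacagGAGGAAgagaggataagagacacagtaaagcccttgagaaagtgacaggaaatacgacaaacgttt
Folr2: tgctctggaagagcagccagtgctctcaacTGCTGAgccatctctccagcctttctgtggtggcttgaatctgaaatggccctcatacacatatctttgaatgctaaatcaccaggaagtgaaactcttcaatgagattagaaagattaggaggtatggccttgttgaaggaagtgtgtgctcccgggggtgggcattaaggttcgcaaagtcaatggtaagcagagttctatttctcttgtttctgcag
Cd68: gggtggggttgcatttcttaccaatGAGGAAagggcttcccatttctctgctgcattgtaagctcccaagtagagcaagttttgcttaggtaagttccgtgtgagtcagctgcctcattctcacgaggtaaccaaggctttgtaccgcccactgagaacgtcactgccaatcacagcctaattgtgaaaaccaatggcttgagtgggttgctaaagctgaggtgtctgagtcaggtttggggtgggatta
Mrc1 held the letters 3 times and F13a1 and Cd68 once each, while the Cd163 window held neither motif. The Folr2 window held TGCTGA once and no GAGGAA, as did the second window of that gene, and the second F13a1 window held neither.

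The libraries had an implied depth of 66.8 to 94.0 M reads (median 79.2 M), read from the step between low values. Each of the 10 genes was above 0 in 10 of 10 libraries. The lowest value of any of them was 65 implied reads, for Folr2, against the limit of 3 reads below which a gene was not considered detected. The labelled tissue was present: Rpe65, the retinoid isomerase of the pigment epithelium, stood at 721 ± 70.3 CPM on the left and 833 ± 119 CPM on the right (± SD, 5 eyes a side). Plvap, of fenestrated choroidal vessels, stood at 39.9 ± 3.33 and 43.7 ± 6.07 CPM. Other tissues were present too, with 4 rod genes summing to 102 to 1509 CPM, 4 skeletal muscle genes to 1650 to 7798 CPM and 10 genes of the surface epithelium to 182 to 1038 CPM. Macrophages and microglia of those tissues share the genes described here, and their part in the levels was not tested. The right eye of animal 65 held the most lens transcript, with 5 crystallin genes at 837 CPM against 118 to 370 CPM in the other 9 libraries, and it held the lowest surface epithelium sum (182 CPM). The right eye of animal 68 held the most rod transcript (1509 CPM) and was least like the other libraries (median correlation 0.968 over all genes tested, against 0.976 to 0.985).

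Levels of different genes are compared per kilobase of exon (the union of exons in GENCODE M21). Csf1r stood highest, at 13.4 ± 1.15 CPM per kb (SD over the 10 libraries), above 92.7% of the 15227 tested genes with a length. Mrc1 followed at 5.51 ± 0.499 CPM per kb, and the ranges of these 2 genes did not overlap. The ranges of Mrc1 and Cd68 overlapped, with Mrc1 above Cd68 in 9 of 10 libraries. Cd68 (4.28 ± 0.748 CPM per kb) and Adgre1 (4.16 ± 0.236 CPM per kb) could not be told apart, with Cd68 above Adgre1 in 4 of 10 libraries. Adgre1 in turn stood above Cx3cr1 (2.06 ± 0.447 CPM per kb) in 10 of 10 libraries with no overlap. From Cx3cr1 downward the neighbours in the order overlapped: F13a1 at 1.78 ± 0.420, Cd163 at 1.66 ± 0.556, Aif1 at 0.892 ± 0.173, Folr2 at 0.840 ± 0.188 and Lyve1 at 0.757 ± 0.304 CPM per kb. Lyve1 thus had the lowest mean level of the 10, above 15.2% of the tested genes. In bulk tissue, fewer cells of a type and less RNA per cell cannot be told apart, so these are levels of transcript in the tissue.

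**Figure D1:**
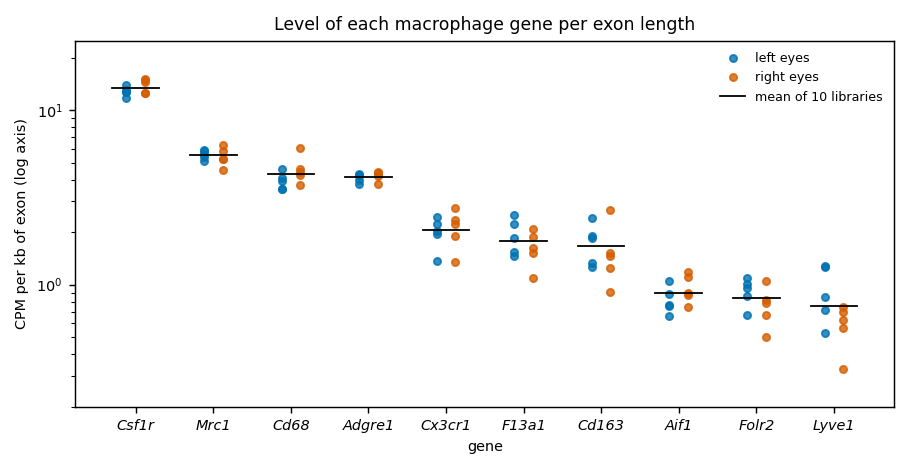
Level of each macrophage gene in CPM per kilobase of exon on a log axis, 1 point per library, with left eyes in blue, right eyes in orange and a bar for the mean of the 10 libraries. Csf1r lies between 11.8 and 15.1 and stands clear of Mrc1, whereas Aif1, Folr2 and Lyve1 overlap near the bottom.

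The first comparison asked whether the genes differed between the fellow eyes of an animal. Lyve1 was lower in the right eye in 5 of 5 animals, and no other member had the same direction in all of them. For comparison, 684 of the 15414 genes (4.44%) went 1 way, up or down, in every animal. The other 4 scavenger and perivascular genes were also lower on average in the right eye, and the 5 general markers were all higher on average, by small amounts. With limma and the animal as a block, 0 of the 10 genes passed an adjusted p of 0.05 (adjusted p = 0.9998 for each), and 0 of 15414 genes did (0.0%). At an unadjusted p under 0.05 there was 1 member, Lyve1, of 10, against 2.79% of all genes (430 genes). Animals are separate samples here, and the 2 eyes of an animal share it.

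Lyve1 (chromosome 7, 110850607 to 110863239, minus strand, GRCm38) stood at 3.73, 3.68, 1.54, 2.47 and 2.08 CPM in the left eyes of animals 61, 64, 65, 66 and 68. In the right eyes of the same animals it stood at 1.82, 2.03, 0.958, 2.16 and 1.64 CPM. The right eyes of 4 animals lay close together and that of animal 65 below them, while 2 left eyes, of animals 61 and 64, stood above all others, and the groups overlapped. The mean was 2.70 ± 0.976 CPM on the left and 1.72 ± 0.470 CPM on the right (± SD, 5 eyes a side). The log2 difference of right minus left was -0.56 ± 0.15 (SE), with a 95% interval from -0.90 to -0.22, that is 0.536 to 0.860 of the left level on the log2(CPM + 0.230) scale. By animal the log2 difference ran from -0.95 in animal 61 to -0.17 in animal 66. In limma its unadjusted p was 0.00583 and its adjusted p 0.9998, so it did not pass. The lowest value rested on 80 implied reads, whose counting interval was 0.761 to 1.19 CPM, and the highest on 275 (3.30 to 4.19 CPM), so the spread between libraries was larger than counting error.

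Lymphatic endothelium and surface tissue were measured beside Lyve1 because lymphatic vessels also express it. All 10 genes of the surface epithelium list had a lower mean on the right, with sums of 365 to 1038 CPM on the left and 182 to 831 CPM on the right, and none passed in limma (0 of 10). Krt15, a keratin of that epithelium, stood at 120.2 ± 35.3 CPM on the left and 74.2 ± 60.4 CPM on the right, while Aldh3a1, an aldehyde dehydrogenase abundant in cornea, stood at 144 ± 73.3 and 77.9 ± 44.8 CPM. The surface epithelium sum was lower in the right eye, as Lyve1 was, in 4 of 5 animals (784 and 392 CPM in the left and right eye of animal 64, 678 and 182 in 65, 1038 and 203 in 66, 569 and 299 in 68). In animal 61 it was higher there (831 against 365 CPM), while Lyve1 was lower. With the surface epithelium mean as a covariate in limma the Lyve1 difference was -0.71. The part of these tissues in the Lyve1 values was not tested beyond this covariate. Of the 7 lymphatic endothelium genes 3 were higher and 4 lower in the right eye, with sums of 337 to 464 CPM on the left and 216 to 466 CPM on the right, and 0 of 7 passed in limma. Prox1, the transcription factor that defines lymphatic identity, stood at 5.26 ± 1.43 and 5.90 ± 4.18 CPM, with the highest value, 12.5 CPM, in the right eye of animal 68. Ccl21a, the chemokine of lymphatic vessels, stood at 1.40 ± 0.547 and 0.885 ± 0.473 CPM (log2 difference -0.60 ± 0.25, SE), and Stab2, a hyaluronan scavenger receptor, at 1.30 ± 0.398 and 1.79 ± 0.464 CPM (0.41 ± 0.14, SE). These last 3 genes were picked after their values were seen. The most abundant of the list per kilobase, Pdpn (88.7 ± 4.20 and 93.4 ± 9.15 CPM) and Reln (278 ± 56.7 and 219.9 ± 97.0 CPM), have other sources in the eye.

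Among the other scavenger and perivascular genes, Mrc1 (chromosome 2, 14229392 to 14332057, plus strand) was the steadiest. It stood at 35.9, 37.9, 32.7, 34.3 and 37.1 CPM in the left eyes of animals 61, 64, 65, 66 and 68 and at 37.0, 33.3, 29.0, 40.1 and 33.4 CPM in the right eyes. The groups overlapped, the right eye of animal 65 was lowest and that of animal 66 highest, and the log2 difference was -0.05 ± 0.07 (SE). Its 95% interval, -0.22 to 0.12, left room for a level between 0.861 and 1.09 of the left eye.

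Cd163 (chromosome 6, 124304656 to 124330527, plus strand) varied nearly as widely as Lyve1. In the order of animals above it stood at 13.1, 10.2, 6.89, 7.22 and 10.4 CPM on the left and at 14.7, 7.94, 4.97, 8.26 and 6.81 CPM on the right. Animal 61 was high in both eyes and animal 65 low in both, and the log2 difference of the sides was -0.21 ± 0.13 (SE), lower in 3 of 5 animals. F13a1 (chromosome 13, 36867178 to 37050244, minus strand) followed a like order, with 15.1, 16.9, 9.85, 12.5 and 10.3 CPM on the left and 14.1, 10.9, 7.31, 12.6 and 10.2 CPM on the right. Its log2 difference was -0.23 ± 0.11 (SE), with 4 of 5 animals lower in the right eye but 3 of the 5 within 0.10 of no difference. Folr2 (chromosome 7, 101839988 to 101857194, minus strand) stood at 1.04, 1.48, 1.33, 1.69 and 1.55 CPM on the left and 1.04, 1.61, 0.778, 1.27 and 1.21 CPM on the right. It was lower in the right eye in 4 of 5 animals, with a log2 difference of -0.24 ± 0.15 (SE). It shares 975 exon bases with a predicted gene on the opposite strand, and no label says whether counting used strand.

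**Figure D2:**
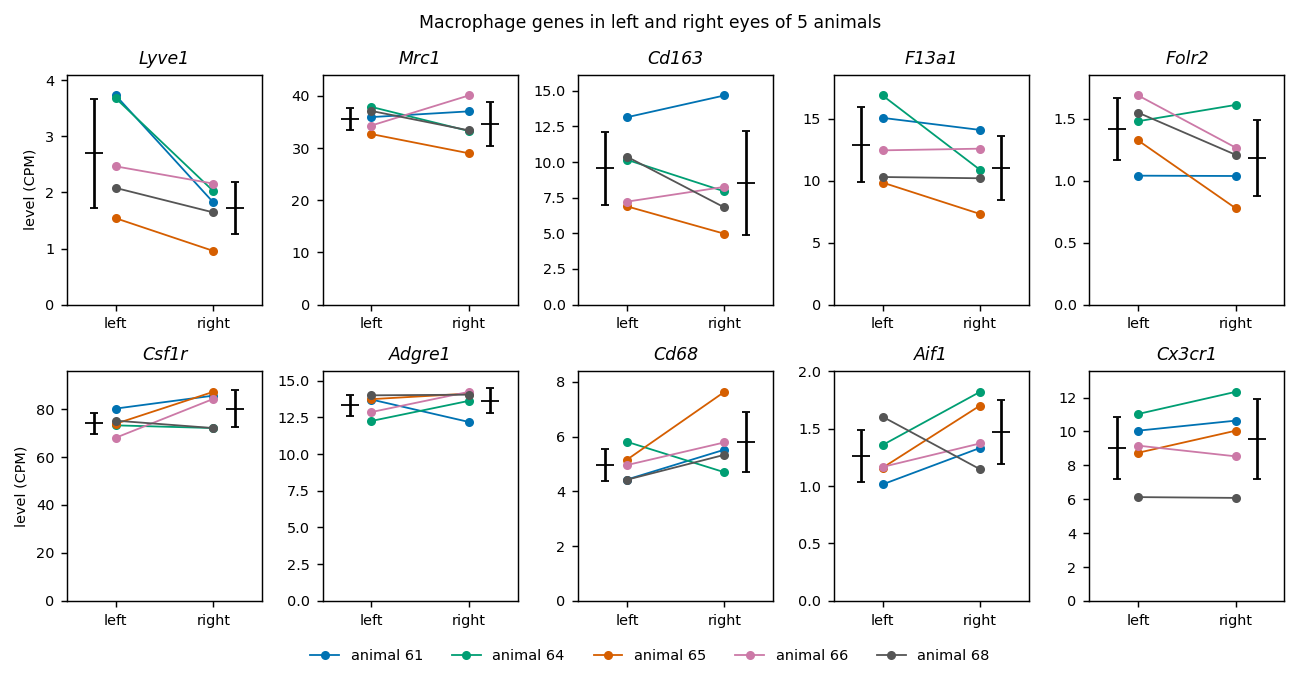
Level in CPM of the 10 macrophage genes in the left and right eye of each animal, 1 coloured line per animal, with the mean and SD of each side in black (n = 5). All 5 lines of Lyve1 go down from left to right, and each of the other genes has lines in both directions.

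The general markers went the other way by small amounts. Csf1r (chromosome 18, 61100598 to 61132149, plus strand) stood at 80.2, 73.2, 73.9, 68.02 and 75.1 CPM on the left and at 85.6, 72.1, 87.2, 84.2 and 72.1 CPM on the right, in the same order of animals. The right eyes of animals 61, 65 and 66 were above every left eye, the other 2 right eyes were within the left range, and the log2 difference was 0.11 ± 0.07 (SE). The 95% interval of -0.04 to 0.26 left room for a level between 0.971 and 1.20 of the left eye. It shares 873 exon bases with Hmgxb3 on the opposite strand. Cd68 (chromosome 11, 69664213 to 69666153, minus strand) stood at 4.43, 5.81, 5.16, 4.96 and 4.43 CPM on the left and at 5.52, 4.70, 7.64, 5.79 and 5.34 CPM on the right. The right eye of animal 65 was highest, 4 of 5 animals were higher on the right, and the log2 difference was 0.21 ± 0.12 (SE).

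Aif1 (chromosome 17, 35170991 to 35176068, minus strand) ranged from 1.01 to 1.60 CPM on the left and from 1.15 to 1.82 CPM on the right. It was higher in the right eye in 4 of 5 animals, with a log2 difference of 0.19 ± 0.16 (SE). Adgre1 (chromosome 17, 57358691 to 57483527, plus strand) was the steadiest of the 10, from 12.2 to 14.0 CPM on the left and from 12.2 to 14.2 CPM on the right. Its coefficient of variation over the 10 libraries was 5.68%, against a median of 11.1% over all genes tested. The log2 difference was 0.03 ± 0.07 (SE), with a 95% interval from -0.12 to 0.19.

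Cx3cr1 (chromosome 9, 119901616 to 120069879, minus strand) differed little between fellow eyes. It stood at 10.0, 11.0, 8.74, 9.16 and 6.13 CPM in the left eyes and at 10.6, 12.3, 10.0, 8.53 and 6.08 CPM in the right eyes of animals 61, 64, 65, 66 and 68. Both eyes of animal 68 lay below all other libraries, and the log2 difference of the sides was 0.06 ± 0.07 (SE). The deposited gene spans 7 other listed genes, 3 of them on the same strand, but shares no exon base with those 3 in GENCODE M21. It shares 78 exon bases with a predicted gene on the opposite strand.

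By role, the 5 scavenger and perivascular genes all had a lower mean level on the right, with a median log2 difference of -0.23 and a range of -0.56 to -0.05. The 5 general markers were all higher, with a median of 0.11 and a range of 0.03 to 0.21. Over all 15414 genes the median was -0.01, and 54.0% were lower in the right eye. None of the 10 passed, the genes share libraries, and the role groups were formed with the values known, so the counts are a description. Markers of other tissues were split between the sides too. Skeletal muscle was lower on the right in 4 of 4 genes (median log2 difference -0.37). Of 4 listed adipocyte genes only Plin4 reached the level for testing, and Adipoq and Plin1 were at 0 in some libraries. Plin4 was lower in the right eye in 5 of 5 animals (54.7 ± 8.10 and 45.7 ± 10.4 CPM, limma unadjusted p = 0.00512 and adjusted p = 0.9998). Genes of the pigment epithelium (3 of 3 tested), choroidal endothelium (4 of 4) and sclera (4 of 4) were higher on the right, and none of these genes passed in limma. Their part in the macrophage differences was not tested, apart from the covariates. The directions of all 10 macrophage genes were the same with each of the 5 animals left out in turn. They were also the same in 11 of the 14 other settings, 1 of which held only 7 of the genes. Settings of the animal block, filter and robust moderation gave the main estimates unchanged, so they could not turn a direction. A member turned with array weights, with the surface epithelium covariate and with the skeletal muscle covariate.

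**Figure D3:**
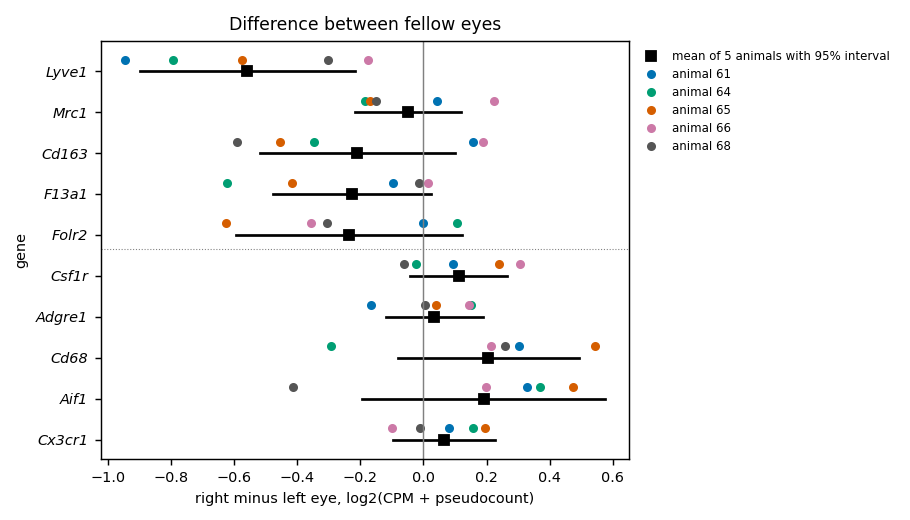
Right minus left difference on the log2(CPM + pseudocount) scale for each gene, with 1 coloured point per animal and the mean with its 95% interval from limma in black. The Lyve1 interval, -0.90 to -0.22, lies below 0, and the intervals of the other 9 genes include 0.

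The second comparison asked whether animals differed in these genes by more than their fellow eyes did. Cx3cr1 ranked first by the test, and Cd163, F13a1 and Lyve1 came next. By limma's F test over the 5 animals, 0 of the 10 genes passed an adjusted p of 0.05 (lowest adjusted p = 0.235, for Cx3cr1), against 13 of all genes tested (0.0843%). At an unadjusted p under 0.05 there were 4 members, Cx3cr1, Cd163, F13a1 and Lyve1, of 10, against 7.22% of all genes (1113 genes). Of the 13 genes called, 5 are transcribed from the sex chromosomes in 1 sex only (Xist, Ddx3y, Eif2s3y, Kdm5d and Uty). By Xist and Ddx3y, 2 of the animals (61 and 65) were female and 3 male, with the 2 eyes of each animal alike. The females were the highest and the lowest animal for Cd163 and for F13a1, and lay within the range of the males for Cx3cr1.

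The Cx3cr1 mean of the 2 eyes was 10.3, 11.7, 9.39, 8.85 and 6.10 CPM in animals 61, 64, 65, 66 and 68. Animal 64 thus stood 1.91-fold above animal 68. Its animal means had an SD of 0.34 on the log2 scale, against a mean absolute difference of 0.11 between fellow eyes. The limma F test gave an unadjusted p of 0.000532 and an adjusted p of 0.235, and without animal 68 the unadjusted p was 0.0469. Ccr2, the chemokine receptor of inflammatory monocytes and a gene of the leukocyte list, had a like test result (unadjusted p = 0.000581 and adjusted p = 0.235 in limma) at 5.41 ± 2.03 CPM on the left and 5.33 ± 1.49 CPM on the right.

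The Cd163 mean of the 2 eyes was 13.9, 9.05, 5.93, 7.74 and 8.59 CPM in the same order, a 2.35-fold range, with an SD of 0.44 between animals and a mean absolute difference of 0.35 between fellow eyes (log2). Its unadjusted p in the limma F test was 0.00636 (adjusted p = 0.460), and 0.0850 without animal 61, the highest. F13a1 ranged 1.70-fold between animal 61 (14.6 CPM) and animal 65 (8.58 CPM), with an unadjusted limma p of 0.0132 (adjusted p = 0.546) and 0.103 without animal 65. Lyve1 ranged 2.28-fold, from 1.25 CPM in animal 65 to 2.85 CPM in animal 64, with an unadjusted limma p of 0.0134 (adjusted p = 0.546) and 0.239 without animal 65. For Cd68 and Aif1 the fellow eyes differed by 0.32 and 0.36 on average, and the animal means had an SD of 0.14 each (log2), which are different measures of spread.

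**Figure D4:**
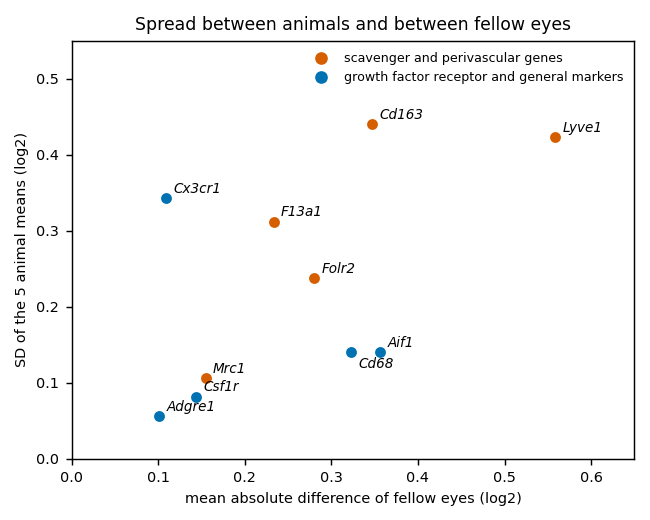
SD of the 5 animal means against the mean absolute difference of fellow eyes, both on the log2(CPM + pseudocount) scale, 1 point per gene, with scavenger and perivascular genes in orange and the general markers in blue. Cx3cr1 combines an SD of 0.34 between animals with a gap of 0.11 between eyes, and Lyve1 has the largest gap of the 10, 0.56.

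The scavenger and perivascular genes also followed one another across libraries. Over the 10 libraries, which are fellow eyes of 5 animals and share depth and tissue makeup, the 10 pairs among them had correlations of log2 values from 0.09 to 0.90 with a median of 0.67. The median over all pairs of tested genes was 0.03. F13a1 and Lyve1 were the closest pair (0.90), and Cd163 followed F13a1 (0.78). The 10 pairs among the general markers had a median of 0.19, and the 25 pairs between the groups a median of -0.30, with Folr2 and Csf1r the most opposed (-0.83). The role groups were formed with the values known, so each value describes these libraries and carries no test.

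These values leaned on 1 library. The right eye of animal 65 was the lowest of the 10 libraries in 5 of 5 scavenger and perivascular genes, and the highest in Csf1r and Cd68. There the mean of the scavenger and perivascular genes was -0.64 from their mean over all libraries on the log2 scale, and that of the general markers was 0.24. The summed level of the 5 scavenger and perivascular genes was 43.0 CPM there and 52.3 to 70.1 CPM in the other 9 libraries. The ratio of Cd163 to Csf1r was 0.0570 there, against 0.171 in the right eye of animal 61, where it was highest. Without that library the median correlation was 0.43 within the scavenger and perivascular genes, 0.01 within the general markers and 0.01 between them. Without both eyes of animal 65 these medians were 0.31, 0.04 and 0.00. This was the library with the most lens transcript (837 CPM) and the least surface epithelium transcript, and their part in its macrophage values was not tested.

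**Figure D5:**
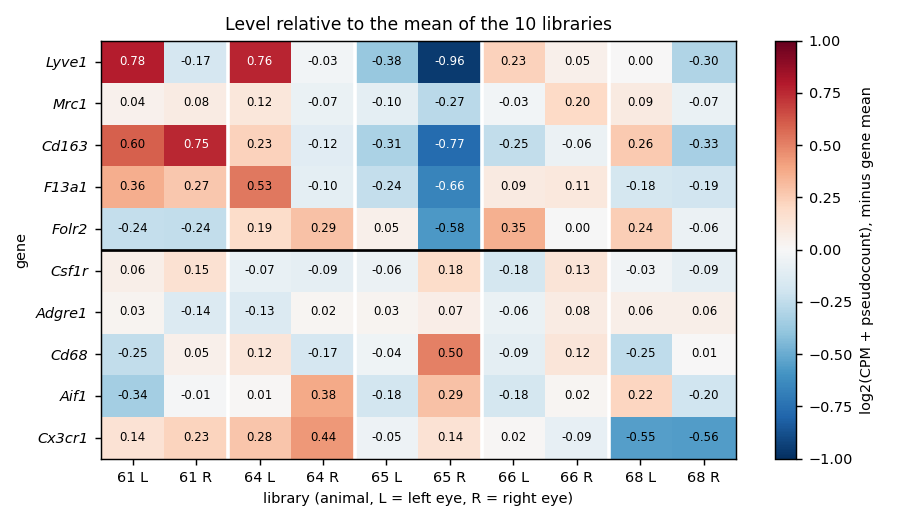
Level of each gene in each library relative to its mean over the 10 libraries, on the log2(CPM + pseudocount) scale, with blue below and red above the mean and a line between the scavenger and perivascular genes (top) and the general markers. The column of the right eye of animal 65 runs from -0.96 for Lyve1 to 0.50 for Cd68, and both eyes of animal 68 are low for Cx3cr1.

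Genes outside the set often lay closer to a member than other members did. For Lyve1 0 of the 15414 genes were closer than F13a1, and for F13a1 6 were closer than Lyve1. By contrast 3947 genes were closer to Adgre1 than Aif1, its nearest member, and 4304 were closer to Cx3cr1 than F13a1, its nearest member. The gene most like each member, predicted loci left out, was Zfp429 for Lyve1 (correlation 0.90 over 10 libraries), Tmed10-ps for Mrc1 (0.99), Eif3e for Cd163 (0.94), Lvrn for F13a1 (0.97) and Hdhd3 for Folr2 (0.90). It was Cdk7 for Csf1r (0.97), Aifm1 for Aif1 (0.91), Ppdpf for Cd68 (0.94), Aatf for Adgre1 (0.92) and S100pbp for Cx3cr1 (0.98). Each named gene is the highest among many genes over only 10 libraries, which include the right eye of animal 65. These likenesses are a description, carry no test and were not computed without that library.

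Other genes of the macrophage programme showed no difference that passed. Of 23 core macrophage and microglia genes 21 were tested, with 9 higher and 12 lower in the right eye and 0 called in limma in either comparison. Between animals 4 of the 21 (Ctss, Lyz2, Siglec1 and Ms4a7) had an unadjusted p under 0.05 in limma, against 7.22% of all genes. Lyz2, which encodes lysozyme, stood at 51.1 ± 9.70 CPM on the left and 50.0 ± 7.17 CPM on the right, and C1qa, a chain of complement C1q, at 20.7 ± 0.872 and 21.1 ± 1.89 CPM. Cbr2, a carbonyl reductase found in resident macrophages and in other cells, had the only unadjusted p under 0.05 between the sides (0.0393 in limma) at 23.2 ± 5.45 and 12.9 ± 9.17 CPM. It was lowest in the right eyes of animals 65, 66 and 68 (4.67, 5.71 and 10.5 CPM) and highest in the left eye of animal 66 (30.2 CPM), where the surface epithelium sum was also lowest (182, 203 and 299 CPM) and highest (1038 CPM). Of the 11 growth signals and regulators, 2 were higher and 9 lower, and none passed in limma. Csf1 stood at 19.99 ± 2.30 CPM on the left and 19.6 ± 1.79 CPM on the right and Cx3cl1 at 16.1 ± 1.87 and 16.0 ± 1.501 CPM. Il34, the other ligand of Csf1r, stood at 6.36 ± 0.182 and 5.89 ± 0.956 CPM, and Spi1, which encodes PU.1, at 1.12 ± 0.306 and 1.30 ± 0.292 CPM.

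MHC class II molecules present antigen on activated macrophages and dendritic cells. The 7 listed genes of this pathway all had a lower mean on the right, with a median log2 difference of -0.06, and none passed in limma. Between animals 5 of the 7 had an unadjusted p under 0.05 in limma, against 7.22% of all genes. The lowest adjusted p in limma was 0.0846, for H2-Aa. Their summed level in the left and right eye was 113 and 107 CPM in animal 61, 137 and 113 CPM in 64 and 85.7 and 111 CPM in 65. It was 73.1 and 61.7 CPM in animal 66 and 63.7 and 58.3 CPM in 68. Animal 68 had the lowest Cx3cr1, and its range overlapped that of animal 66 in this sum. Cd74, the invariant chain, stood at 39.8 ± 14.0 CPM on the left and 38.3 ± 13.6 CPM on the right, and H2-Eb1 at 12.5 ± 4.51 and 11.2 ± 3.87 CPM. Of 13 genes of other leukocytes only 3 reached the level for testing. Ptprc, the common leukocyte phosphatase, stood at 15.4 ± 2.71 CPM on the left and 15.0 ± 1.79 CPM on the right. S100a8, Cd3e, Cd8a, Cd79a and Nkg7, of neutrophils and lymphocytes, were at 0 in some libraries. Of 6 mast cell genes only Kit, which melanocytes also express, reached that level, and Fcer1a was at 0 in some libraries.

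Genes that make and bind hyaluronan, the ligand of Lyve1, were measured for 8 of 9 listed members, and 5 were tested. Of these 1 was higher and 4 lower in the right eye, and 0 passed in limma. Cd44, the main hyaluronan receptor of most cells, stood at 26.3 ± 2.64 CPM on the left and 24.9 ± 2.59 CPM on the right, and Hyal1, a lysosomal hyaluronidase, at 16.7 ± 1.24 and 16.5 ± 2.04 CPM. Has2, a hyaluronan synthase, had an unadjusted p of 0.0397 in limma at 3.47 ± 0.957 and 2.41 ± 0.364 CPM, lower in 4 of 5 animals.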

How the data were processed

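Total RNA (1 μg per library) was made into stranded, ribosomal RNA depleted libraries, per the labels. Partek, STAR and GRCm38 (mm10) are named, per the submitters' processing notes, while versions, annotation and use of strand were not given in these sources. An offset of 0.0001 was subtracted from the CPM values that the authors deposited. Low values were whole multiples of a step (tolerance 0.05) for 89.1% to 90.1% of values, which gave the implied depth but not whole reads for every gene, and intervals from them cover counting error only. Genes in the table held 42.7% to 47.1% of each library's CPM total. Gene ends are 1 below the deposited stop, and starts and ends equal GENCODE M21 for all 10 genes. Promoter windows came from RefSeq (GRCm38.p6). The labels' extraction protocol speaks of retinae, whereas the tissue label does not.

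The 15414 genes averaging 1 CPM or more were fitted on log2(CPM + 0.230), a scale that understates the change of low genes. The fit was limma 3.58.1 in R 4.3.3, with terms for animal and eye side and a mean trend in the moderation, and Benjamini-Hochberg adjustment over all genes tested. The block follows from the fellow eyes of each animal. The correlation of their deviations ran from -0.19 to 0.27 and was over 0.1 in 2 of 5 animals. No library repeated another: over 45 pairs the chi-square divided by its degrees of freedom was 12.0 or more. All 10 genes passed the filter.

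The members, lists and role groups were chosen with earlier results of these data known. By rule, members were named, with the 2 most abundant genes of each list per kilobase and the gene most like each member. Other names were picked after their values were seen. Alternatives covered the animal block, pseudocount, filter, scaling, weights, moderation, tissue covariates and each animal or library left out. The crystallin genes and the pair correlations without animal 65 were chosen after seeing the data. Figures were drawn with matplotlib 3.10.9.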

Additional observations from a re-analysis of the deposited data

How the results depend on the processing

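Between the sides, 0 members and 0 genes were called in limma in every setting run, 29 of them. Without the replicate block the count of members was 0, as with the animal as a random effect. The block thus changed no call. Between animals, 0 members were called in 27 of 27 settings. The count of all genes called between animals was 20 with array weights against 13, and 5 to 10 with an animal or a library left out, where fewer libraries were fitted. Leaving out 1 eye gives the same difference between the sides as leaving out its animal, so these are 5 checks. For Lyve1 the difference was -0.65 to -0.46 with an animal left out (lowest adjusted p 0.940 in limma) and -0.71 to -0.42 in 13 other settings (0.630). The other 9 differences each moved by over 1.5 times in some setting, with furthest values for Mrc1 (-0.12 without animal 66, -0.014 without 64), Cd163 (-0.11 without 68, -0.093 with the skeletal muscle covariate), F13a1 (-0.13 without 64) and Folr2 (-0.14 without 65, -0.11 with the surface epithelium covariate). The furthest values of the general markers were those of Csf1r (0.062 without 66, 0.053 with the surface epithelium covariate), Cd68 (0.12 without 65, 0.33 without 64), Aif1 (0.12 without 65, 0.34 without 68), Adgre1 (0.0050 without 64, 0.084 without 61) and Cx3cr1 (0.032 without 65, 0.11 without 66). The Mrc1 difference turned to 0.013 with the skeletal muscle covariate. The Adgre1 difference turned to 0.00 (-0.0045) with array weights and to -0.034 with the surface epithelium covariate, and the cause was not tested. The median correlation between the groups of members, -0.30, was 0.0052 once the right eye of animal 65 was left out and 0.0036 once both of its eyes were. With a filter of 5 CPM, Lyve1, Aif1 and Folr2 were not fitted. No scaling moved the median of all genes by over 0.1. At this depth 3 reads equal 0.0319 to 0.0449 CPM, below every value of the 10 genes.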

Other observations

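The 2 animals with high Xist (61 and 65) had the lowest Folr2, at 1.04 and 1.05 CPM as the mean of both eyes, against 1.38 to 1.55 CPM in the other 3. They also had the highest Csf1r, at 82.9 and 80.5 CPM, against 72.6 to 76.1 CPM. The other 8 members overlapped between these animals. Over all 15414 genes tested 16.7% had animal means that did not overlap, near the share of 2 of 10 members, and no test was made.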
